A study of Mus musculus with 6 samples.

Results

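Ena/VASP proteins and other actin regulators of T cell migration were followed in Tregs from the BM of mice with chronic myeloid leukemia (CML) and of naive mice. The members are the 10 genes Evl, Vasp, Enah, Was, Wipf1, Zyx, Pfn1, Coro1a, Dock2 and Dock8, found by exact match of the name in the deposited tables. They hold 11 of the 36930 features, because Dock2 is listed as 2 features. RNA came from 3 CML and 3 naive mice, with 1 library for each mouse, and the values were read as RPKM (reads per kilobase of feature, scaled to the size of the library), which can be compared between genes because they are per length. All mice were 8 weeks old and carried the Foxp3-DTR-GFP allele, which expresses a diphtheria toxin receptor and GFP from Foxp3. CML mice had received syngeneic LSKs transduced with a BCR-ABL1-GFP retrovirus without irradiation and were analyzed at day 15. Tregs were FACS purified, and the retrovirus of the CML mice also carries GFP. Where 3 values of a group are listed, they are in the order of replicates 1, 2 and 3. The members were chosen by name with the RPKM values of CML and naive Tregs already known.

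Ena/VASP proteins bind the barbed ends of actin filaments and let them grow in the presence of capping protein, and they are recruited to adhesions and to the leading edge by ligands with proline-rich repeats. Evl, Vasp and Enah are the 3 family members of mammals. Was, which is stabilized by Wipf1, activates the Arp2/3 complex to branch filaments, Zyx brings Ena/VASP proteins to sites of tension, Pfn1 delivers actin monomers, Coro1a binds filaments and regulates their turnover, and Dock2 and Dock8 activate the small GTPases Rac and Cdc42 during migration. Loss of Was, Coro1a, Dock2 or Dock8 causes immunodeficiency.

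The labels were checked first. The 6 T cell and Treg markers (Cd3e, Cd3g, Cd4, Foxp3, Il2ra and Ikzf2) had reads in all 6 libraries and summed to 1551 to 2165 RPKM in CML Tregs and 1543 to 1834 RPKM in naive Tregs. The depth that follows from the smallest steps of the values was about 829181 to 7613827 reads in CML libraries and 5187987 to 9751911 reads in naive libraries, and CML replicate 2 had the fewest. The 10 neutrophil and myeloid markers summed to 21.4, 212 and 217 RPKM in CML replicates 1, 2 and 3 and to 30.4 to 60.2 RPKM in naive Tregs, with Ly6g at 0 in every library. The 7 erythroid markers summed to 35.6 to 206 RPKM in CML Tregs and to 5.01 to 29.6 RPKM in naive Tregs. The 2 CD8 T cell markers summed to 51.1 to 74.2 and 26.2 to 58.7 RPKM, the 4 megakaryocyte markers to 0 to 1.85 and 1.80 to 7.77 RPKM, and the 3 progenitor markers to 7.90 to 17.8 and 13.0 to 18.2 RPKM in CML and naive Tregs. In bulk RNA, fewer cells of a type and less RNA per cell cannot be told apart.

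Of the 10 genes, Evl differed most between the groups. Evl was measured at 47.7, 43.4 and 61.4 RPKM in the CML mice and at 206, 222 and 177 RPKM in the naive mice. The groups were far apart, with a lowest naive value of 177 RPKM and a highest CML value of 61.4 RPKM. CML Tregs averaged 50.8 ± 9.43 RPKM and naive Tregs 202 ± 23.1 RPKM (SD, n = 3 each), so that the naive mean was 3.97 times the CML mean. The difference in log2(RPKM + 1) was -1.98 (standard error 0.19). The median difference of all 13923 features tested was -0.18 on this scale, and relative to it the difference of Evl was -1.80. As results of this contrast were known when the genes were picked, and Evl is in the study's own list of changed genes, these values are a description and no p-value is given for a member.

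Evl is a protein-coding gene on chromosome 12 of mouse genome build GRCm38.p6, from 108554681 to 108688516 on the plus strand. The RefSeq promoter table gives Evl 2 transcription starts, and the outermost end of the gene lies inside the window of the upstream start. The 250 bases before each start are shown, because Evl is the member on which the results turn and Klf2, a KLF transcription factor that binds CACCC boxes, is among the genes that follow Evl most closely (described further on). Capitals mark CACCC, the only letters searched for here besides the CArG box of SRF, with its reverse complement GGGTG on the other strand.

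Evl upstream start, chr12:108554470-108554719, plus strand: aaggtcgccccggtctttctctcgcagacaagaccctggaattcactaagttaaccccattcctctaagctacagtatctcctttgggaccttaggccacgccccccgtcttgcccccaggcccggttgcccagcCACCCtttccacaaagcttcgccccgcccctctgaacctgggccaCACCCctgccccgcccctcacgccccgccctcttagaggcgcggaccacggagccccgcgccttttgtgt

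Evl downstream start, chr12:108605516-108605765, plus strand: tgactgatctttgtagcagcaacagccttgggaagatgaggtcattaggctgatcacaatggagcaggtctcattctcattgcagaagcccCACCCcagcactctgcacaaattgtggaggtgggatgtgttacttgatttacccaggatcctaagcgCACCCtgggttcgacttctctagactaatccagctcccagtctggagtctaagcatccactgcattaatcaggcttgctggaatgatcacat

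Each Evl window held 2 copies of CACCC. Of the 32851 promoter windows of the same length in the RefSeq table, 52% held at least 1 copy on either strand and 21.1% held at least 2. Of the 14 windows of the 10 genes, 10 held the letters, and they belonged to 7 genes, among them Vasp, Zyx and Dock2. Whether Klf2 binds these windows or regulates Evl was not tested. The CArG box, which SRF binds at many genes of the actin cytoskeleton, was in 0 of the 14 windows and in 1.5% of all windows.

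The number of reads behind each value differed widely. With the longest annotated transcript of Evl (2180 bases), the values correspond to about 792, 78 and 306 reads in CML replicates 1, 2 and 3 and to 2334 to 4245 reads in naive libraries. In CML replicate 2, the 95% Poisson interval was 34.1 to 53.9 RPKM, which covers counting error only and rests on the approximate depth. The neutrophil and myeloid sums of the CML libraries (21.4, 212 and 217 RPKM) lay on both sides of the naive sums (30.4 to 60.2 RPKM). The erythroid sums did not overlap and were the higher ones in CML Tregs (35.6 to 206 against 5.01 to 29.6 RPKM). The part of depth and of both marker lists in the result was not tested.

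Other features lie within or across the Evl gene, and reads there cannot be told apart from those of Evl where they overlap, since the library kit does not mark strand. The microRNA gene Mir342 lies inside Evl on the same strand, on chromosome 12 from 108658620 to 108658718. Its mature microRNAs are shown because they share the transcription unit of Evl. Capitals mark the seed, bases 2 to 8, and the sequences are those of RefSeq in build GRCm38.p6.

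mmu-miR-342-5p: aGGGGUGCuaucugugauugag

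mmu-miR-342-3p: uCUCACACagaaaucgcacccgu

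The seeds of both arms differ. The Mir342 feature had 0 RPKM in all CML libraries and in naive replicate 1, and 14.9 and 13.4 RPKM in naive replicates 2 and 3, which is about 13 reads in each. A level of 3 reads on its 99 bases would be 3.98 RPKM in CML replicate 1, 36.5 RPKM in CML replicate 2, 13.3 RPKM in CML replicate 3 and 5.84 RPKM in naive replicate 1. The naive values of 13.4 and 14.9 RPKM were above this level of CML replicate 1 and below that of CML replicate 2, and naive replicate 1 was as empty as the CML libraries. The kit primes on poly(A) tails, which mature microRNAs lack. Degs2, a gene of sphingolipid synthesis on the opposite strand, overlaps the 3′ end of Evl. It had 0 RPKM in all CML libraries and 2.69, 3.71 and 2.45 RPKM in the naive mice. In CML replicate 1, 3 reads of Degs2 would be 0.228 RPKM, so its low level was measurable there, but which of both genes these reads came from cannot be told apart.

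**Figure D1:**
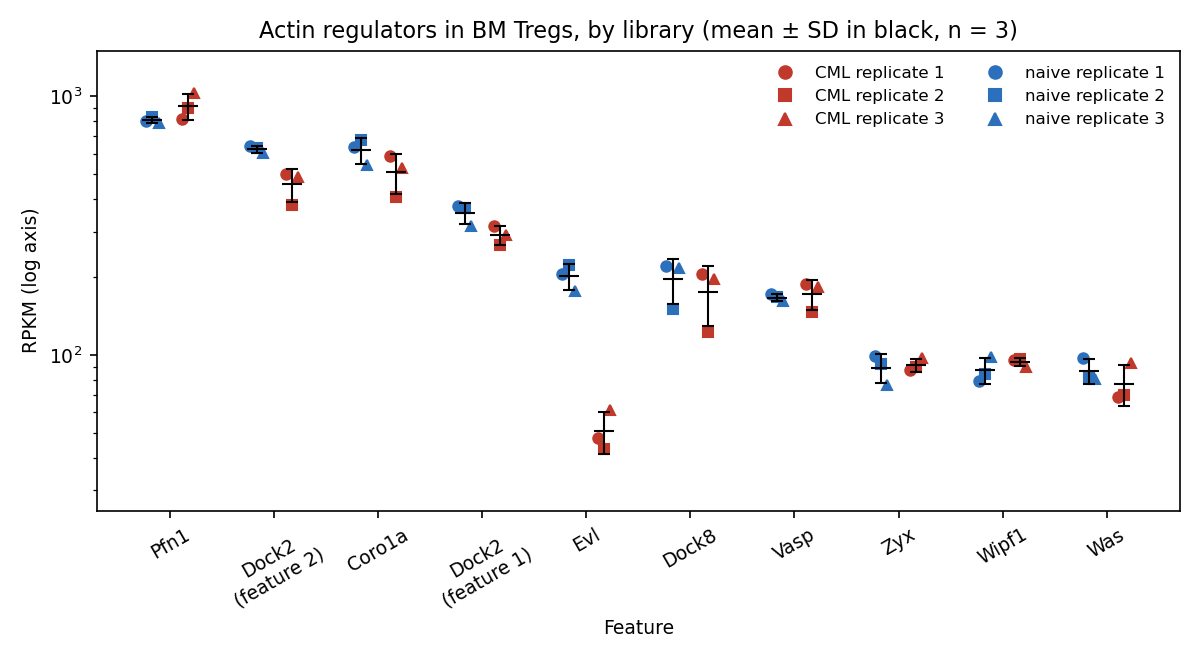
RPKM (log axis) of 10 features of 9 genes in each of the 6 libraries, ordered by the naive mean, with naive libraries in blue, CML libraries in red and the mean ± SD (n = 3) in black. Evl is the only feature with a wide gap between groups (43.4 to 61.4 against 177 to 222 RPKM), whereas Vasp, Zyx, Wipf1 and Was overlap. Enah, at 0 RPKM in 4 libraries, is not drawn.

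Vasp, the founding member of the family, was at like levels in both groups. Vasp was measured at 187, 146 and 184 RPKM in the CML mice and at 171, 167 and 161 RPKM in the naive mice. CML replicate 2 was below all naive libraries and the other CML libraries were above them, so the groups overlapped. The means were 172 ± 22.9 and 167 ± 4.95 RPKM (SD, n = 3), with a difference in log2(RPKM + 1) of 0.04 (standard error 0.15). Scaling all libraries to the same 75th percentile, or leaving out CML replicate 2 (log2 difference 0.16), left no overlap, with the CML values on top, and the difference was -0.02 without CML replicate 1. Enah, the third member of the family, had 0.647, 0 and 0.202 RPKM in the CML libraries and 0 RPKM in the 3 naive libraries. It was the only member below the mean of 1 RPKM needed for the tests. With its longest transcript of 11229 bases, 3 reads would be 0.322 RPKM in CML replicate 2 and 0.0515 RPKM or less in naive libraries, so Enah was below that level in every naive library and was not measurable to the level of CML replicate 3 in CML replicate 2.

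The makeup of the family thus differed between the groups. Evl made up 54.7%, 57.1% and 52.3% of the summed RPKM of the 3 genes in naive replicates 1, 2 and 3. In CML replicates 1, 2 and 3, Evl made up 20.2%, 22.9% and 25.1%. Evl was the larger part in every naive library and Vasp in every CML library. The mean share of Evl was 54.7% ± 2.41 (SD, n = 3) in naive Tregs and 22.7% ± 2.41 (SD, n = 3) in CML Tregs, a difference of -31.9 percentage points that lay between -33.1 and -30.7 when each library was left out in turn. The ratio of Evl to Vasp, which does not depend on the scaling of a library, was 0.255, 0.297 and 0.335 in the CML libraries and 1.21, 1.33 and 1.09 in the naive libraries. The summed RPKM of the family was 236, 189 and 245 in the CML mice and 378, 389 and 338 in the naive mice.

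**Figure D2:**
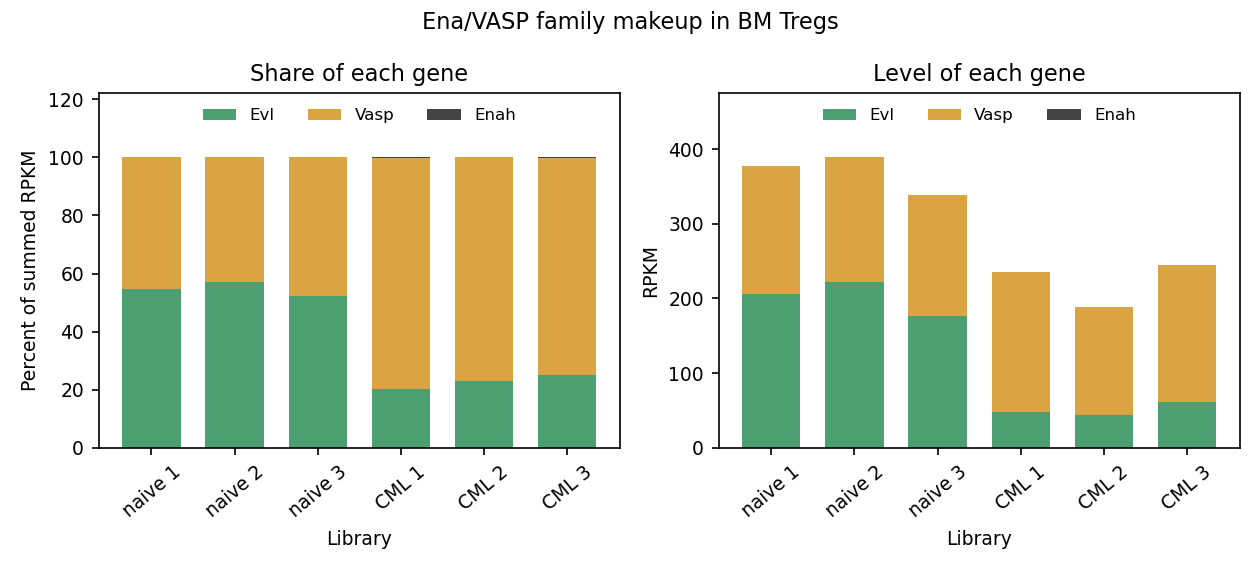
Evl, Vasp and Enah in each library, as percent of their summed RPKM (left) and as RPKM stacked on each other (right). The Evl part shrinks from 52.3% to 57.1% in naive libraries to 20.2% to 25.1% in CML libraries, while the Vasp part of the right panel stays between 146 and 187 RPKM.

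Zyx, Was and Wipf1, which link Ena/VASP proteins or the Arp2/3 complex to adhesions and signals, overlapped between the groups. Zyx was measured at 87.2, 89.7 and 97.0 RPKM in the CML mice and at 98.7, 92.1 and 76.8 RPKM in the naive mice. Was reached 68.7, 70.2 and 93.2 RPKM in the CML mice and 97.7, 81.3 and 80.8 RPKM in the naive mice. CML replicates 1 and 2 were below the naive libraries for Was, and CML replicate 3 was among them. Wipf1 reached 95.8, 96.0 and 90.0 RPKM in the CML mice and 79.5, 84.1 and 98.5 RPKM in the naive mice. The log2 differences were 0.04 for Zyx (standard error 0.16), -0.17 for Was (standard error 0.19) and 0.11 for Wipf1 (standard error 0.16), none larger than its standard error. When each library was left out in turn, they ranged from -0.06 to 0.12, from -0.31 to -0.08 and from 0.05 to 0.20. Was did not overlap without CML replicate 3 (-0.31), and Wipf1 did not overlap, with the CML values on top, without naive replicate 3 (0.20).

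Pfn1, the most abundant member, was measured at 818, 901 and 1028 RPKM in the CML mice and at 801, 831 and 788 RPKM in the naive mice. CML replicate 1 lay within the naive range, and the other CML libraries lay above it. The log2 difference was 0.18 (standard error 0.14), and relative to the median of all features it was 0.35. Pfn1 did not overlap and was the higher in CML Tregs at a common 75th percentile (0.25), after quantile normalization (0.35), and without CML replicate 1 (0.25) or naive replicate 2 (0.20), and its difference was 0.09 without CML replicate 3. Coro1a reached 585, 409 and 529 RPKM in the CML mice and 638, 680 and 540 RPKM in the naive mice. CML replicate 1 was above naive replicate 3, and the other CML libraries were below all naive libraries. The log2 difference of Coro1a was -0.30 (standard error 0.18), with -0.15 without CML replicate 2 and -0.10 with quantile normalization. Without CML replicate 1 (-0.41) or naive replicate 3 (-0.39), its groups did not overlap.

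Of the exchange factors, both Dock2 features were lower without overlap, and Dock8 overlapped between the groups. The first Dock2 feature was measured at 314.8, 266.7 and 291.4 RPKM in the CML mice and at 376.8, 368.6 and 314.9 RPKM in the naive mice. The highest CML and the lowest naive value all but touched, and with quantile normalization the groups overlapped. The second Dock2 feature reached 502, 381 and 488 RPKM in the CML mice and 641, 631 and 604 RPKM in the naive mice, without overlap. The log2 differences were -0.28 (standard error 0.15) and -0.46 (standard error 0.15), which is -0.10 and -0.28 relative to the median of all features. The files do not say how both features differ, and they may share reads. Dock8 reached 205, 123 and 197 RPKM in the CML mice and 222, 151 and 217 RPKM in the naive mice. CML replicate 2 and naive replicate 2 were the low libraries of their groups, and the log2 difference was -0.18 (standard error 0.25). It depended on every library, from 0.06 without CML replicate 2 to -0.36 without naive replicate 2, where the groups did not overlap.

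Counted together, 10 of the 11 member features passed the filter of a mean of 1 RPKM, and 3 of these, Evl and both Dock2 features, had their 3 CML values below their 3 naive values. Over all features tested, 12.2% were lower in this way. None of the 10 had all CML values on top, compared with 4.84% of all features. Evl was the only member to pass limma's adjusted p of 0.05 with a fold of at least 1.5, which 0.129% of all features passed in the downward direction (18 features) and 0.172% in either. As the members were chosen with this contrast in view, nothing is read from these counts. The median log2 difference of the 10 features was -0.17, close to the -0.18 of all features, and without Evl it was also -0.17. Evl did not pass the rule without naive replicate 1, 2 or 3 (log2 differences of -1.96, -1.90 and -2.07), and it passed when CML replicate 1, 2 or 3 was left out (-1.94, -1.87 and -2.12). It also did not pass with a pseudocount of 0.001, without the filter, with a constant prior variance or with a replicate block, where the log2 difference was -1.98 to -2.00.

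Among the members past the filter, Evl alone changed its place in the order of levels beyond the spread between mice. In naive Tregs the order of mean RPKM was Pfn1 (807), the second Dock2 feature (625), Coro1a (619), the first Dock2 feature (353), Evl (202), Dock8 (196), Vasp (167), Zyx (89.2), Wipf1 (87.3), Was (86.6) and Enah (0). In CML Tregs it was Pfn1 (915), Coro1a (508), the second Dock2 feature (457), the first Dock2 feature (291), Dock8 (175), Vasp (172), Wipf1 (94.0), Zyx (91.3), Was (77.4), Evl (50.8) and Enah (0.283). Coro1a and the second Dock2 feature, Dock8 and Vasp, and Zyx, Wipf1 and Was overlapped with their neighbors in both groups, so the changes of order within these sets are within the spread between mice. Evl overlapped with Dock8 in naive Tregs and lay below every value of Was in CML Tregs. Evl exceeded 97.6% of all features tested by its mean RPKM in naive Tregs and 84.8% in CML Tregs. Pfn1 exceeded 99.7% in both.

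The other genes of the pathway were counted in 8 lists of 133 genes that were written from general knowledge of actin regulation. The tables hold 130 of these names, and 125 features were tested. Earlier results of these data were known when the lists were chosen, so their counts and shares are a description. By limma with Benjamini-Hochberg adjustment over all 13923 features, 0 of the 125 passed an adjusted p of 0.05 (0.172% of all features did so with the fold threshold), and 16 had an unadjusted p under 0.05, 12 lower and 4 higher in CML Tregs. This is 12.8% of the 125, compared with 9.68% of all features. Their median log2 difference was -0.03, compared with -0.18 for all features. The groups did not overlap for 18 lower genes (14.4%, compared with 12.2% of all features) and 10 higher genes (8%, compared with 4.84%). These counts depended on single libraries and on scaling. Groups of 2 against 3 libraries overlap less often, so each count stands here beside the share of all features under the same setting. Without CML replicate 3, 34 genes were lower (27.2%, compared with 22.7% of all features) and 13 higher (10.4%, compared with 7.92%). Without CML replicate 2, 19 were lower (15.2%, compared with 16%) and 34 higher (27.2%, compared with 13.9%). Without CML replicate 1, 30 of 124 were lower (24.2%, compared with 23%) and 17 higher (13.7%, compared with 9.12%). Without naive replicate 1, 19 were lower (15.2%, compared with 16.1%) and 16 higher (12.8%, compared with 7.45%). With quantile normalization, 15 were lower (12%, compared with 9.12%) and 16 higher (12.8%, compared with 8.88%).

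Among EVH1 ligands and adhesion partners of Ena/VASP proteins, 13 features were tested, 9 were negative (69.2%, compared with 64.3% of all features), and the median log2 difference was -0.26. The most abundant were Fyb, an adaptor of the T cell receptor that binds Ena/VASP proteins, Tln1, which activates integrins, and Skap1, the partner of Fyb. Fyb averaged 404 ± 83.8 RPKM in the CML mice and 517 ± 29.7 RPKM in the naive mice (SD, n = 3; limma adjusted p = 0.565). Tln1 had 210 ± 22.2 and 209 ± 9.60 RPKM (log2 difference 0.0028), and Skap1 had 133 ± 21.0 and 181 ± 34.1 RPKM (limma adjusted p = 0.526). Of the 3, Fyb and Skap1 did not overlap between the groups. Over the 13 features, 4 were lower in CML Tregs without overlap (30.8%, compared with 12.2% of all features) and 1 higher (7.69%, compared with 4.84%). Apbb1ip, which encodes the Rap1 effector RIAM and was named after its values were seen as the only gene of this list with an unadjusted p under 0.05, had 113 ± 8.04 and 163 ± 14.5 RPKM (limma adjusted p = 0.303).

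WASP and WAVE factors and their partners had a median log2 difference of 0.04 over 17 features, the Arp2/3 complex and actins 0.14 over 11 features, and formins 0.19 over 6 features. Higher in CML Tregs without overlap were 3 of the 17 (17.6%), 2 of the 11 (18.2%) and 1 of the 6 features (16.7%). Of all features, 4.84% were higher in this way. In these 3 lists, 0 features were lower without overlap, compared with 12.2% of all features. Actb had 4423 ± 834 and 4459 ± 176 RPKM in CML and naive Tregs (SD, n = 3; limma adjusted p = 0.969). Actg1, the other cytoplasmic actin, had 400 ± 74.1 and 284 ± 13.9 RPKM, without overlap (limma adjusted p = 0.439). Hcls1, a cortactin relative of blood cells, had 236 ± 16.1 and 194 ± 11.5 RPKM, also without overlap (limma adjusted p = 0.565). Arpc2, Cdc42, Fnbp1, Fmnl1 and Inf2 overlapped between the groups, and Fmnl3 was higher in every CML library with 27.7 ± 2.11 against 23.3 ± 1.52 RPKM (limma adjusted p = 0.719).

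Of the 26 features for monomer binding, capping and turnover, the median log2 difference was 0.06. Tmsb4x and Cfl1, the abundant monomer-sequestering and filament-severing proteins, had 2957 ± 798 against 3719 ± 553 RPKM and 522 ± 49.8 against 524 ± 34.4 RPKM, with overlapping groups. Tmsb10 was lower in every CML library, with 231 ± 82.4 and 465 ± 101 RPKM (SD, n = 3; log2 difference -1.04, standard error 0.28, limma adjusted p = 0.283). Of the 29 features for small GTPases and exchange factors, 23 were negative (79.3%, compared with 64.3% of all features), and the median log2 difference was -0.17, close to the -0.18 of all features. Rac2, the Rac of blood cells on which Dock2 acts, had 685 ± 140 and 761 ± 38.1 RPKM (limma adjusted p = 0.758). Arhgef1 and Arhgdib had 380 ± 65.2 against 511 ± 61.1 RPKM and 328 ± 21.1 against 425 ± 64.7 RPKM (limma adjusted p = 0.489 and 0.521). Myh9, Msn and Lcp1, the most abundant of the 20 features for cortex, crosslinkers and myosins, overlapped between the groups. Of these 20, 4 were lower in CML Tregs without overlap (20%, compared with 12.2% of all features) and 0 higher (compared with 4.84%). Their median log2 difference was -0.07, and 4 had an unadjusted limma p under 0.05 (20%, compared with 9.68%). Srf and its coactivators Mkl1 and Mkl2 overlapped between the groups.

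Among the 125 wider genes, 2 came closest to Evl in size and were named after their values were seen. Actn1, an actin crosslinker that binds zyxin, was measured at 18.3, 17.9 and 11.3 RPKM in the CML mice and at 57.7, 54.8 and 41.2 RPKM in the naive mice. Its log2 difference was -1.65 (standard error 0.27, limma adjusted p = 0.0793). Rhob, a small GTPase of endosomes, reached 10.7, 10.2 and 14.8 RPKM in the CML mice and 41.7, 28.4 and 42.9 RPKM in the naive mice, with a log2 difference of -1.58 (standard error 0.28, limma adjusted p = 0.112). Neither gene overlapped between the groups, but neither passed the adjusted p of 0.05.

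**Figure D3:**
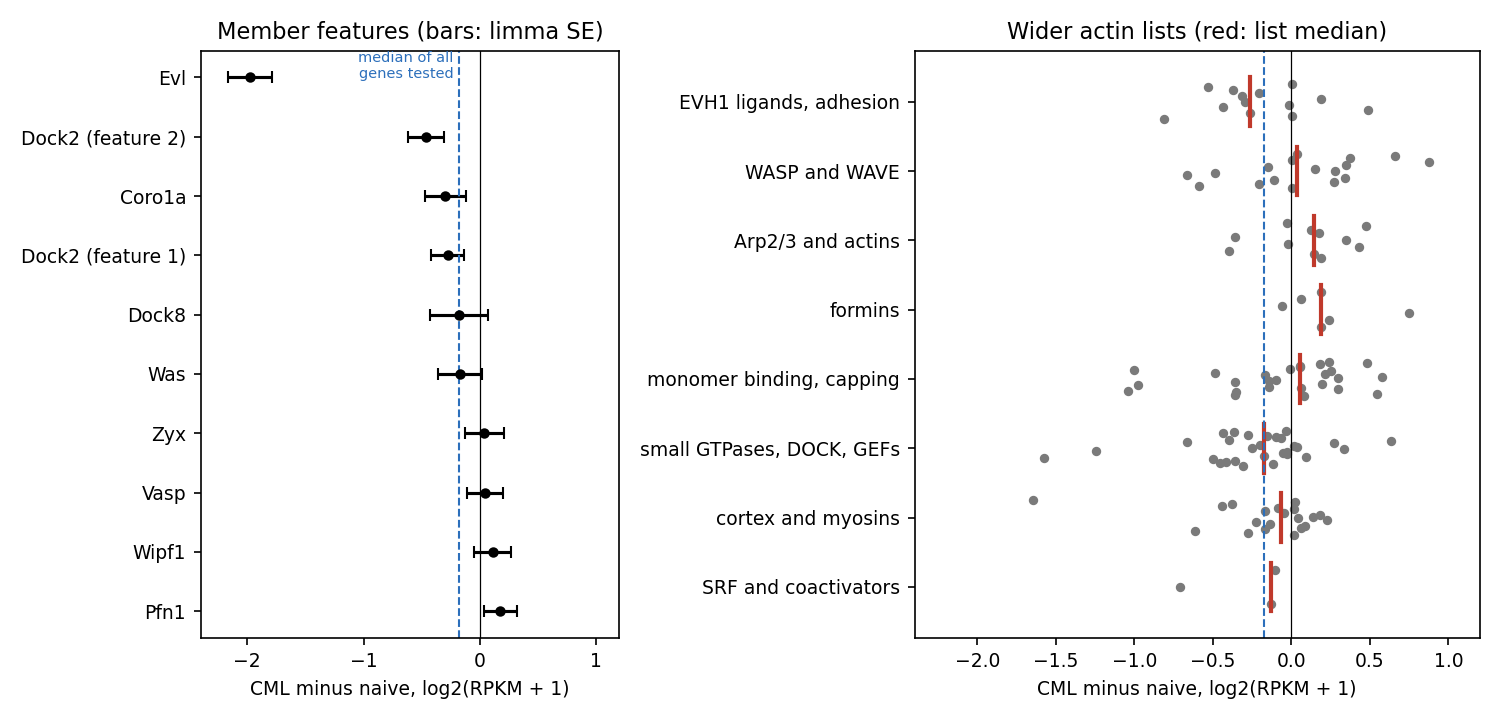
Difference between CML and naive Tregs in log2(RPKM + 1), for the 10 member features tested with limma standard errors (left) and for the 125 features of the 8 wider lists (right, gray points, list medians in red). The dashed line is the median of all features tested, -0.18. Evl at -1.98 stands outside the range of the wider lists (-1.65 to 0.87), and the other members lie between -0.46 and 0.18.

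The features whose values followed those of Evl most closely over the 6 libraries, by Pearson's r of log2(RPKM + 1), were Mcmbp, Zfp276, Irak3, Klf2 and Snord17, with r from 0.993 (Snord17) to 0.995 (Mcmbp). These r values are a description, since the 6 points fall into 2 groups and 142 features had an r of at least 0.95 with Evl. Klf2, which maintains the egress and quiescence genes of resting T cells, was measured at 91.5, 82.7 and 116 RPKM in the CML mice and at 317, 327 and 230 RPKM in the naive mice. As with Evl, CML replicate 3 was the highest of the CML libraries and naive replicate 3 the lowest of the naive libraries. Zfp276, Irak3 and Snord17 had this pattern too, so it is not particular to Klf2. Picking features by their r with Evl favors it. Mcmbp, which binds the MCM helicase, reached 32.0, 31.9 and 37.9 RPKM in the CML mice and 67.4, 69.7 and 68.8 RPKM in the naive mice. Zfp276 and Irak3 were lower in level, at 6.22 to 7.13 and 1.83 to 2.55 RPKM in CML Tregs and 13.5 to 16.6 and 4.42 to 5.10 RPKM in naive Tregs. Snord17, a small nucleolar RNA feature on which reads of other transcripts may be counted, had 333 to 358 RPKM in CML Tregs and 619 to 709 RPKM in naive Tregs. Among the members themselves, the second Dock2 feature had the highest r with Evl (0.91), and Vasp had -0.06.

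**Figure D4:**
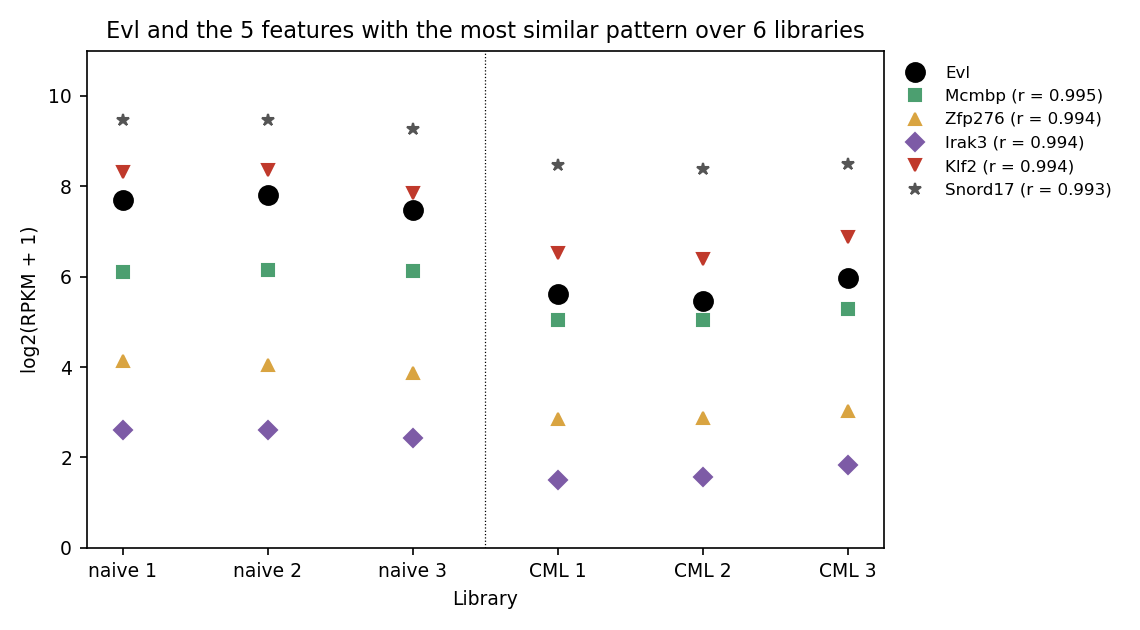
Level in log2(RPKM + 1) of Evl (black) and of the 5 features with the highest Pearson's r with Evl, in the 3 naive and 3 CML libraries. All 6 features are lower in each CML library than in each naive library. Within CML Tregs, Klf2, Mcmbp and Snord17 have the library order of Evl, and the 5 features were picked for a pattern like that of Evl.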

How the data were processed

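RNA of BM Tregs from 3 CML and 3 naive mice was measured. The authors prepared SMART-Seq v4 libraries, sequenced single-end reads, used SeqMan NGen for assembly and ArrayStar for expression values, and deposited 1 value for each feature, read here as RPKM because the sums differ between libraries (669761 to 815919). The submitters' processing notes name the builds GRCm38 and mm10, and the annotation is not given in the sources used here. A deposited value of 0.001 marks features without reads and was set to 0. Repeated names (41) were kept as separate features.

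Features were tested on log2(RPKM + 1) with limma 3.58.1 (R 4.3.3), taking the 13923 features with a mean of at least 1 RPKM, with a trended prior variance and Benjamini-Hochberg adjustment. This replaced the count test of the study, as the values are not counts. A call needed an adjusted p under 0.05 and a fold of at least 1.5. Fold changes on this scale understate those of low features. Each p-value sets the difference between the groups against the spread between libraries, with the variance moderated over all features tested. With 1 library for each mouse, the spread between mice and that between libraries cannot be told apart. Reads per library were roughly estimated from the smallest recurring product of RPKM and length in RefSeq microRNA and small nucleolar RNA genes. Of the other low products, 31.7% (naive replicate 3) to 58.5% (CML replicate 2) lay near whole multiples of it. The estimated depths served only for read estimates, with the longest GENCODE M21 transcript, and for levels of 3 reads. Promoter and microRNA sequences are those of RefSeq (GRCm38.p6). Other steps ran in Python 3.11.15 (pandas 2.3.3, scipy 1.17.1, numpy 2.4.6).

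The members and lists were chosen with earlier results of these data known. Named were all members, the 3 most abundant genes of each wider list and any that passed, the 5 features most like Evl, and genes stated as named after their values were seen. The labels do not say that the replicate numbers pair the mice. Alternatives covered the pseudocount, the filter, the scaling, each library left out, a replicate block, variance moderation, library weights, and the removal of features of short RNAs and T cell receptor segments. The formin genes of 3 names are not analysed here. The B cell markers are not reported here.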

Additional observations from a re-analysis of the deposited data

How the results depend on the processing

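Of 13923 features tested, 24 were called (6 higher and 18 lower in CML Tregs). The number was 0 with a pseudocount of 0.001, 1 without a filter on low values, 11 with a constant prior variance, 12 without microRNA, small nucleolar RNA and T cell receptor segment features, 45 with library weights, and 53 with either quantile normalization (23 higher, 30 lower) or the same 75th percentile (21 higher, 32 lower). It ranged from 0 to 29 when each library was left out. Of the members, 1 was called (Evl), and 0 were called with a pseudocount of 0.001, without a filter, and with a constant prior variance, and 0 to 1 when each library was left out. With the replicate block, 1 feature and 0 members were called. Deviations of same-numbered libraries correlated with r of -0.00477, -0.00159 and -0.0192, within the range of the other pairs (-0.0419 to 0.0519). No pairing is seen in these values, but with 3 libraries per group they cannot exclude a shared batch. The block also removes degrees of freedom. The cause of the changes between settings was not tested. The difference of Evl stayed between -2.12 and -1.87 in all 16 alternatives. None of the 125 wider genes was called in any of the 16. The share of Evl in its family fell by 31.9 percentage points (-33.1 to -30.7 when each library was left out), and the log2 difference between Evl and Vasp fell by 2.02. The median difference of all features was -0.18, and it moved to -0.0068 after quantile normalization and to -0.12 at a common 75th percentile. Depth limits Enah, Mir342 and all low values in CML replicate 2.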
